A study of Mus musculus with 6 samples.

Results

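The CCN family is a small group of secreted matricellular proteins, proteins that sit in the extracellular matrix and signal from it without building it. The rule took 5 genes by their symbols in the deposited table, Cyr61, Ctgf, Nov, Wisp1 and Wisp2, which are the older names of Ccn1 to Ccn5. All 5 were found among 54532 genes, and 3 of them, Cyr61, Wisp1 and Wisp2, were expressed highly enough to test. RNA was sequenced from mouse cells labelled as primary lung fibroblasts, in 3 NC libraries and 3 libraries with calumenin (Calu) knockdown, KD. The titles say NC and KD while the descriptions call the same libraries WT and KO, the labels do not spell out NC, and no strain, age, knockdown reagent or time is given in the sources used here. Whether the replicates were separate cultures or animals is not stated, so the p-values speak only to the variation among these 6 libraries, part or all of which may be technical. The study asked what loss of calumenin, a calcium-binding protein of the secretory pathway, does to fibrosis and senescence signalling.

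CCN proteins are built from a chain of modules that resemble, in order, insulin-like growth factor binding proteins, von Willebrand factor type C repeats, thrombospondin type 1 repeats and a C-terminal cystine knot. They act largely through integrins, heparan sulfate proteoglycans and low-density lipoprotein receptor-related proteins, and they bind growth factors of the TGF-beta, BMP, VEGF and IGF families. In fibroblasts Cyr61 and Ctgf are textbook immediate targets of YAP and TAZ acting with TEAD factors, Ctgf is also a target of TGF-beta, and Wisp1 was named for its induction by WNT1. Wisp2 differs from its relatives in that it lacks the C-terminal cystine knot.

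That difference was visible in the gene models of the mm10 annotation (GENCODE M21), where the deposited positions of all 5 genes were the same. Wisp2 (chromosome 2, 163820861 to 163833146, plus strand) had a coding sequence of 753 bases over 4 coding exons. Cyr61, on the minus strand of chromosome 3 at 145646976 to 145649981, had 1137 coding bases over 5 coding exons. Wisp1 (chromosome 15, 66891320 to 66923201, plus strand) had 1101 coding bases over 5 coding exons. Nov lay on the same chromosome and strand at 54745702 to 54754039 with 1062 coding bases, and Ctgf on chromosome 10, plus strand, at 24595442 to 24598683 with 1044, each over 5 coding exons. The spans ran from 3006 bases for Cyr61 to 31882 for Wisp1.

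The promoter of Cyr61 alone is shown because RefSeq's promoter table (GRCm38.p6) matched 1 of the 5 members, Cyr61 under its name Ccn1. Its TEAD motif is marked because Cyr61 is a known TEAD target and because TEAD targets are described further on. The sequence is the 250 bases before the RefSeq start, chr3:145649986-145650235 on the minus strand, written 5′ to 3′ in the direction of transcription, with capitals for the TEAD motif.
Cyr61: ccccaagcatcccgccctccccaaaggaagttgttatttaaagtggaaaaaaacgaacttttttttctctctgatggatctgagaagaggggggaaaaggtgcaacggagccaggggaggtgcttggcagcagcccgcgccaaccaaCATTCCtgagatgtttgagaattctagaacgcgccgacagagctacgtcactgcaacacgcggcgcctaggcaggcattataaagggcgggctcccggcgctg
The TEAD motif, CATTCC or GGAATG on the other strand, occurred once, 103 to 98 bases before the start, and 12.6% of 32817 promoters of the same length held it. The short cyclic AMP response motif, TGACG or CGTCA, lay 58 to 54 bases before the start and was held by 17.7% of promoters. A TATA motif, TATAAA or TTTATA, lay 25 to 20 bases before the start (12.4% of promoters). These 3 matches did not overlap. The CArG box of serum response factor had 0 matches in this window, and 1.47% of promoters held it. Matches describe letters and are not measured binding.

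The libraries held 15907164 to 18312888 reads recovered from the FPKM values (fragments per kilobase of gene and per unit of library size, a level per gene length). Calu, the targeted gene, had 220, 227 and 225 FPKM in NC1, NC2 and NC3 and 14.6, 12.6 and 13.1 FPKM in KD1, KD2 and KD3. Between replicates, chi-square over its degrees of freedom lay between 2.26 and 3.03 within NC, at 4.15 between KD2 and KD3, and at 15.7 and 25.9 where KD1 was one of the pair, so no library was a repeat of another. KD1 also had the highest mitochondrial share of reads, 2.56%, where the other libraries had 1.60% to 1.97%. Of 9 fibroblast markers 5 passed the filter, Lum and Tcf21 had 0 reads, and Dcn (0.0108 FPKM in NC, 0 in KD) and Thy1 (0.126 and 0.104 FPKM) were close to 0. Among the expressed markers Col1a1 (149 to 284 FPKM, limma adjusted p = 0.000193) and Pdgfra (7.05 to 11.2 FPKM, adjusted p = 0.00422) rose and Pdgfrb (36.9 to 30.3 FPKM, adjusted p = 0.0292) fell, the last not when NC1, NC2, NC3 or KD2 was dropped (adjusted p between 0.0886 and 0.111), and their part in the results on CCN genes was not tested. Epithelial markers summed to 0.0630 to 0.887 FPKM and endothelial markers to 0.145 to 0.204 FPKM per library. Smooth muscle markers came mainly from Des (6.67 FPKM in NC, 5.69 in KD), with Acta2 close to 0 (0.0353 and 0.0659 FPKM), leukocyte markers from Cd68 (3.71 and 2.74 FPKM), with Ptprc close to 0, and mesothelial markers from Msln (14.2 and 12.4 FPKM), with Wt1 at 0 in NC.

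The 3 measurable CCN genes did not move together. Cyr61 and Wisp2 rose in KD, Wisp1 fell, and Ctgf and Nov were close to 0 reads throughout. All 3 tested members passed the limma threshold, an adjusted p under 0.05, beside 24.5% of the 12299 genes tested (10.9% higher and 13.6% lower). In all 3 the KD and NC values did not overlap, which also held for 44.2% of genes tested (21.3% with KD above and 22.9% with KD below). With so many genes called, passing the test does not set these 3 apart. Each sample is a bulk extract, so fewer expressing cells and less RNA per cell cannot be told apart.

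**Figure D1:**
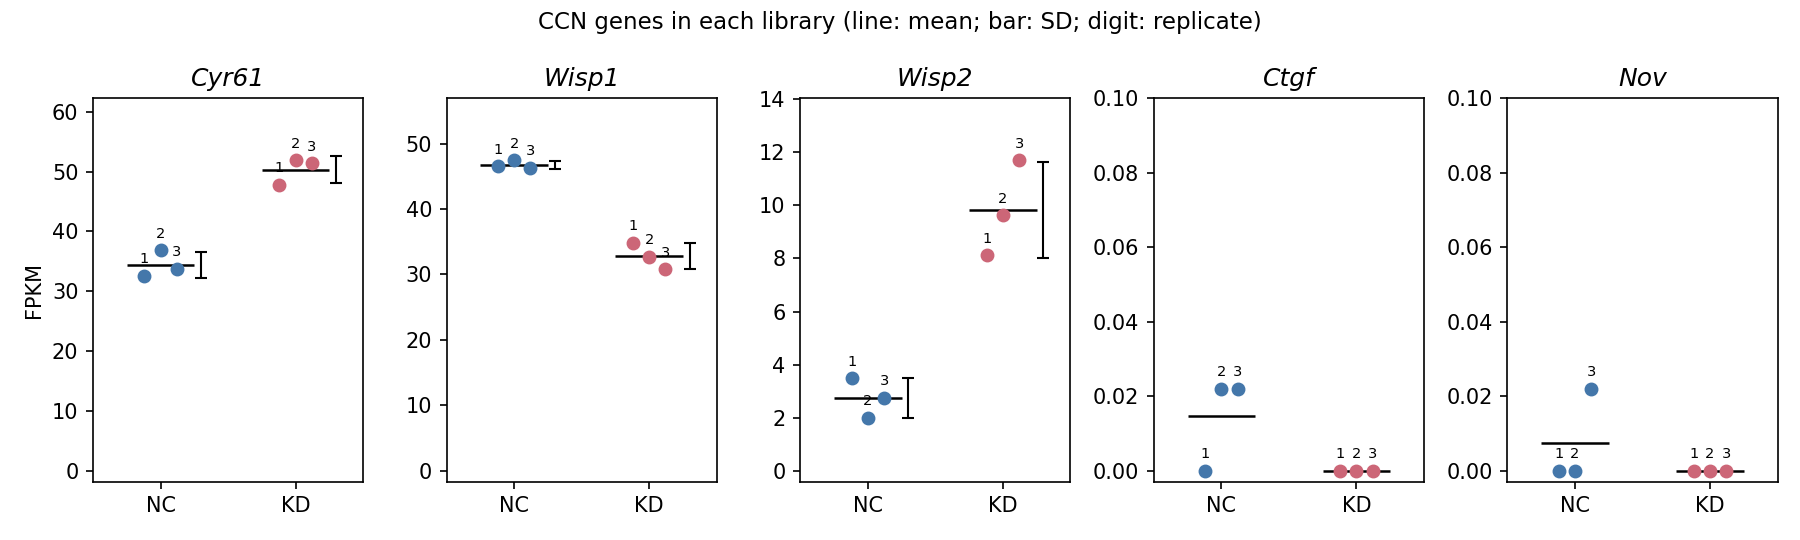
FPKM of the 5 CCN genes in each library, NC in blue and KD in red, with digits for replicates, lines for means and, for Cyr61, Wisp1 and Wisp2, bars for SD (n = 3). The axes of Cyr61, Wisp1 and Wisp2 differ, and those of Ctgf and Nov end at 0.1 FPKM, where every point stands for 0 or 1 read. KD sits above NC for Cyr61 and Wisp2 and below it for Wisp1.

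Cyr61 encodes a heparin-binding, integrin-binding protein that acts on adhesion, migration and, in wound fibroblasts, senescence. The NC libraries 1 to 3 gave 32.6, 36.8 and 33.8 FPKM, and the KD libraries 1 to 3 gave 47.8, 51.9 and 51.4 FPKM. Every KD library was above every NC library. The mean went from 34.4 ± 2.20 to 50.3 ± 2.26 FPKM (SD, n = 3 each), a ratio of 1.46. This was a log2(FPKM + 1) difference of 0.54 (SE 0.07, limma adjusted p = 0.00258), the 431st largest of 1344 rises called. The spread among replicates, 6.41% of the mean in NC and 4.48% in KD, was wider than the 3.01% and 2.39% that counting alone would give for its 1056 to 1784 reads per library.

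Wisp1 encodes a CCN protein that is induced by WNT signalling and raised in fibrotic lung. It moved in the opposite direction. Its levels were 46.5, 47.5 and 46.3 FPKM in the NC libraries 1 to 3 and 34.9, 32.7 and 30.8 FPKM in the KD libraries 1 to 3. The NC libraries lay close together and every KD library was below them. The mean fell from 46.8 ± 0.622 to 32.8 ± 2.03 FPKM (SD, n = 3 each), which left 70.1% of the NC level. The log2(FPKM + 1) difference was -0.50 (SE 0.06, limma adjusted p = 0.00227), the 668th largest of 1672 falls called. In NC the replicate spread, 1.33% of the mean, was no wider than the 1.55% that counting gives for its 4082 to 4198 reads, while in KD it was 6.20% against 1.78%.

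Wisp2 encodes the member without the cystine knot, a secreted product of mesenchymal precursor cells that is linked to WNT signalling and to adipogenic commitment. Wisp2 stood at 3.49, 1.99 and 2.75 FPKM in the NC libraries 1 to 3 and at 8.12, 9.63 and 11.7 FPKM in the KD libraries 1 to 3. The lowest KD value was more than the highest NC value by a margin wider than the spread inside either group. The mean rose from 2.75 ± 0.750 to 9.82 ± 1.80 FPKM (SD, n = 3 each), a ratio of 3.57. As a log2(FPKM + 1) difference this was 1.54 (SE 0.18, limma adjusted p = 0.00191), the 26th largest rise of all genes tested. It rested on 253 reads in NC and 977 in KD, and the replicate spread of 27.3% in NC and 18.3% in KD was wider than the 10.9% and 5.54% from counting. The pseudocount of 1 shrinks the change of a gene at this level: voom on the recovered reads gave a log2 difference of 1.88 (SE 0.23, adjusted p = 0.000463), and a pseudocount of 5 gave 0.93. Among the KD libraries KD1 was the nearest to NC for Cyr61, Wisp1 and Wisp2 alike. Without KD1 the limma differences were 0.57, -0.55 and 1.65.

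**Figure D2:**
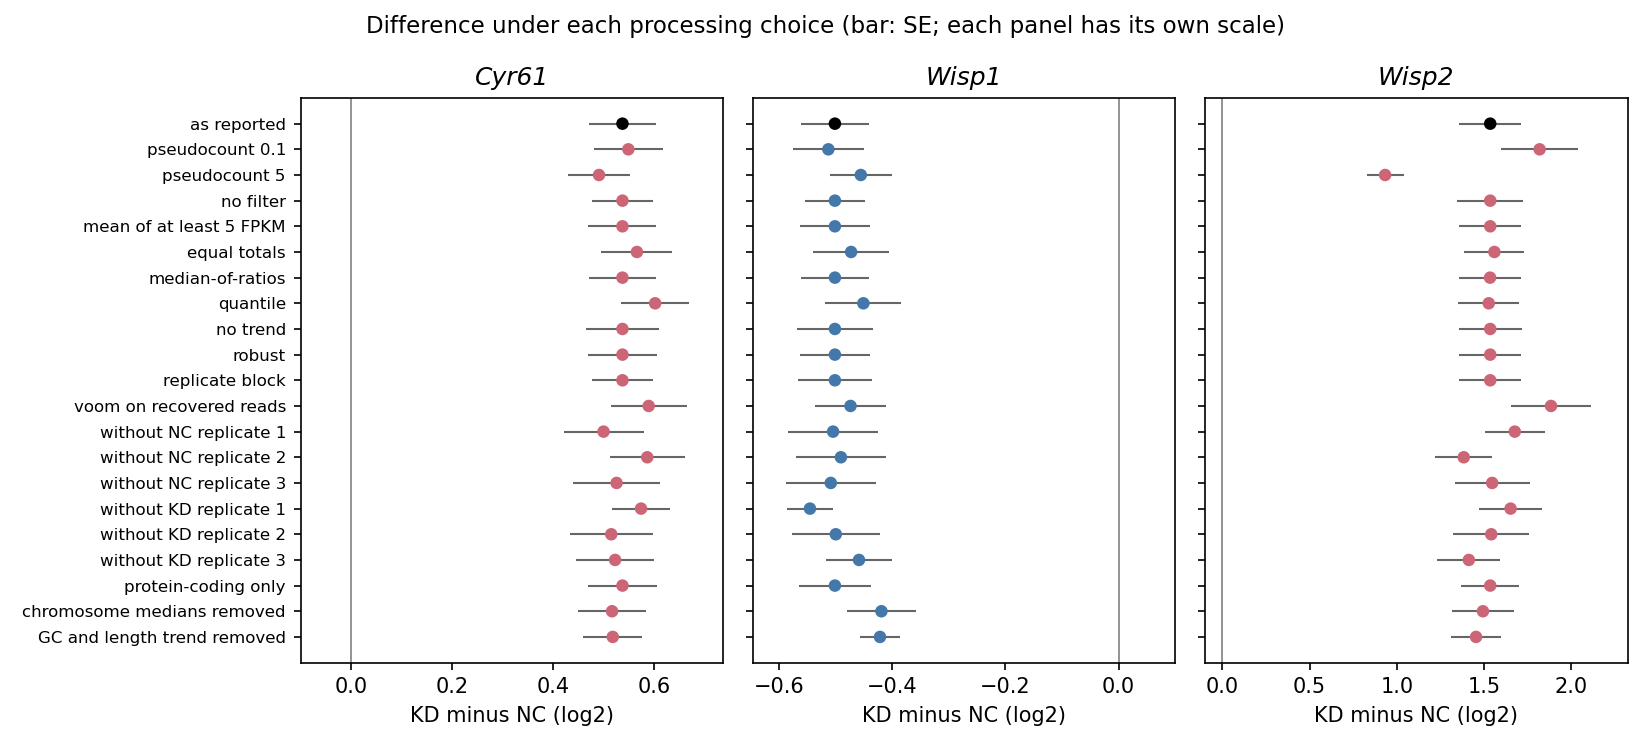
KD minus NC difference (log2 scale, bars for SE) of Cyr61, Wisp1 and Wisp2 as reported, in black, and under each of 20 other processing choices, on separate scales. Each gene keeps its side of 0 in every row, and Wisp2 moves most, from 0.93 with a pseudocount of 5 to 1.88 with voom.

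Ctgf, the connective tissue growth factor gene and a standard marker of profibrotic signalling, had 0, 1 and 1 reads in NC1, NC2 and NC3 and 0 reads in each KD library. Nov, a CCN gene known as an antagonist of Ctgf in several tissues, had 0, 0 and 1 reads in NC and 0 in each KD library. At these depths 3 reads of Ctgf correspond to 0.0567 to 0.0662 FPKM and 3 reads of Nov to 0.0565 to 0.0660 FPKM, so a level above those was not detected for either gene in any library (counting error only). Both groups were under that limit, so no fold and no direction is given. Cyr61, which shares the TEAD input with Ctgf, was at 32.6 FPKM or more in the same libraries. The antisense-strand gene Gm15270 overlaps Ctgf over 1667 bases and had 1 read in each NC library and 2, 5 and 4 in KD1, KD2 and KD3. The counter's strand setting is not given in the sources used here.

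Wisp3, the sixth gene of the family and not among the 5, had 0.877, 0.665 and 0.667 FPKM in NC1, NC2 and NC3 and 1.22, 0.638 and 0.667 FPKM in KD1, KD2 and KD3. The groups overlapped and its mean was under the filter of 1 FPKM, so it was not tested. It shares 1573 bases with Tube1 on the opposite strand, which had 216 to 306 reads per library against 15 to 32 for Wisp3, and without strand information reads of the pair cannot be told apart.

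Because FPKM is a level per gene length, the members can be set beside each other. Their order, and the shares of the summed FPKM below, rest on 1 deposited length per gene. That length was 5565 bases for Wisp1, with 6 transcripts in GENCODE M21, and 2019 bases for Cyr61, with 1. Which transcripts were expressed was not examined, and another length would move the order and the shares. In NC the order was Wisp1, Cyr61, Wisp2, and in KD it was Cyr61, Wisp1, Wisp2, in each of the 3 libraries of the group. Wisp1 was 1.43, 1.29 and 1.37 times Cyr61 in NC1, NC2 and NC3, and 0.730, 0.629 and 0.600 times Cyr61 in KD1, KD2 and KD3. The order of these neighbours was thus reversed without overlap between the groups. Wisp2 stood well below both in every library, with Cyr61 9.32 to 18.5 times higher in NC and 4.39 to 5.88 times higher in KD.

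Summed over the 5 genes, CCN transcript came to 83.9 ± 2.08 FPKM with NC against 93.0 ± 1.91 FPKM with knockdown (SD, n = 3 each). Wisp1 made up 55.7% ± 0.690 of it in NC and 35.3% ± 2.86 in KD. Cyr61 made up 41.0% ± 1.64 and 54.1% ± 1.33, and Wisp2 3.29% ± 0.960 and 10.5% ± 1.78. The make-up of the family shifted more than its sum.

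**Figure D3:**
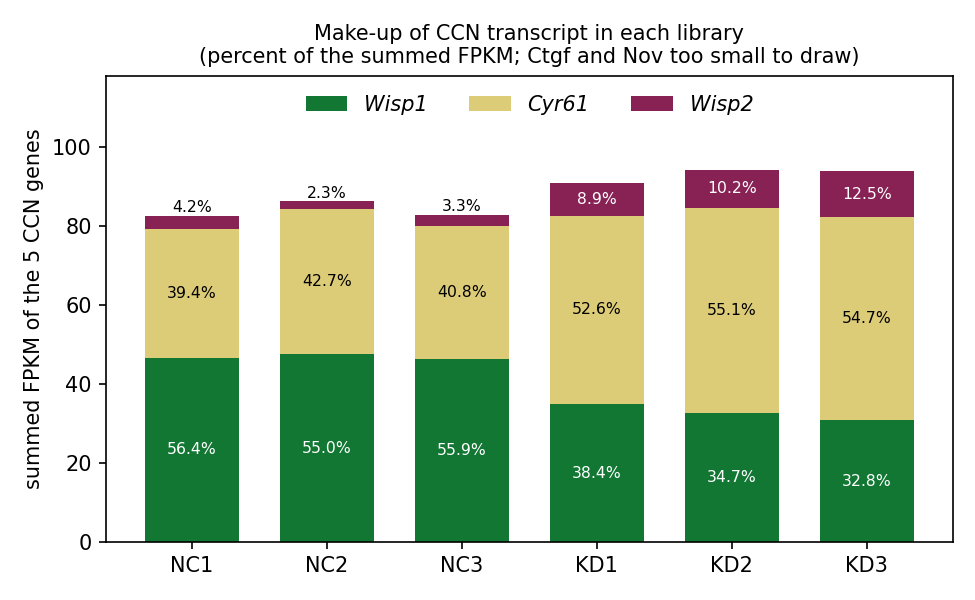
Summed FPKM of the 5 CCN genes in each library, divided by gene, with each gene's percent of the sum. Wisp1 is the larger part in the 3 NC libraries (55.0% to 56.4%) and Cyr61 in the 3 KD libraries (52.6% to 55.1%), and Ctgf and Nov are too small to see.

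The members were then compared pairwise within each library, as log2 ratios of FPKM + 1. The ratio of Wisp2 to Cyr61 was higher in KD by 1.0, from -3.26 ± 0.38 to -2.26 ± 0.19 (SD, n = 3 each), so Wisp2 rose further than Cyr61. The ratio of Wisp1 to Cyr61 fell by 1.04, from 0.43 ± 0.07 to -0.60 ± 0.14, and that of Wisp1 to Wisp2 fell by 2.04, from 3.69 ± 0.31 to 1.65 ± 0.33. The groups did not overlap for any of the 3 ratios. Two-sided exact permutation tests gave p = 0.1 for each (0.1 after Benjamini-Hochberg adjustment over the 3), the smallest p that 3 against 3 allows, so none can pass 0.05. The ratios with Wisp1 were added after its values were seen.

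Genes with the most similar pattern over the 6 libraries were named by Pearson correlation on log2(FPKM + 1) among 10295 tested protein-coding genes, as a description. For Cyr61 they were Zfp324 (r = 0.999), Tmem94 (0.998), Pear1 (0.998), Syt8 (0.997) and Rnf167 (0.996). For Wisp2 they included Arhgef39 (0.994), Cd81 (0.994), Ip6k1 (0.994) and Wbp1l (0.993). For Wisp1, added after its values were seen, they were Ankfy1, Gtpbp4, Iigp1 and Pnpt1 (each above 0.999) and Pitrm1 (0.999). Iigp1, an interferon-inducible GTPase gene, went from 60.2 to 11.6 FPKM, a much larger fall than that of Wisp1. Such values are common when samples form 2 groups: 418 genes (4.06%) had r above 0.95 with Cyr61, 885 (8.60%) with Wisp1 and 395 (3.84%) with Wisp2.

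The nearest tested genes on either side of each member were also read. For Cyr61 neither neighbour was called, Znhit6 (limma difference -0.17, adjusted p = 0.179) or Rpl36a-ps2 (0.18, adjusted p = 0.626), and for Wisp2 neither Ada (-0.15, adjusted p = 0.372) nor Ywhab (0.00, adjusted p = 0.99). Next to Wisp1, Phf20l1 was not called (-0.18, adjusted p = 0.249), while Ndrg1, 6117 bases away, fell from 27.7 to 23.3 FPKM (-0.24, adjusted p = 0.0198). The Ndrg1 call ended when NC1, NC2, NC3 or KD2 was dropped (adjusted p between 0.0603 and 0.0947), under the replicate block (0.0510) and with chromosome medians removed (0.0851). Both neighbours of Ctgf were lower in KD, Stx7 (-0.40, adjusted p = 0.00479) and Enpp3 (-0.88, from 2.08 to 0.665 FPKM). Enpp3 passed the filter only through NC, so no p-value is given for it. The 595 tested genes of chromosome 10, where Ctgf lies, had a median difference of -0.19, against 0.01 for all genes tested. Beside Nov, neither Ext1 (0.25, adjusted p = 0.0792) nor Taf2 (0.16, adjusted p = 0.32) was called.

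Receptors and binding partners of CCN proteins were divided. Counts of called genes in each list are set beside the 24.5% of all tested genes that were called. Of 9 tested receptor genes 2 rose and 2 fell (44.4% called, against 24.5% of all genes), with a median log2 difference of -0.05 where the median of all genes tested was 0.01. The laminin receptor chain Itga6, which pairs with Itgb1 to bind Cyr61 and Ctgf, had 19.8, 19.8 and 19.2 FPKM in NC and 9.23, 8.25 and 8.33 FPKM in KD, without overlap, and fell (difference -1.10, limma adjusted p = 0.000108). The fibronectin receptor chain Itga5 fell from 34.9 ± 1.16 to 24.2 ± 2.59 FPKM (SD, n = 3, adjusted p = 0.00716). The heparan sulfate proteoglycan gene Sdc4 rose from 31.0 ± 0.366 to 44.4 ± 4.25 FPKM (adjusted p = 0.00533). The common beta chain Itgb1 rose from 78.8 ± 1.11 to 94.5 ± 8.59 FPKM (adjusted p = 0.0458). Leaving out any single library but KD1 or KD3 ended that call (adjusted p between 0.0794 and 0.145), as did removing chromosome medians (0.474). With any single library but KD1 or KD3 left out, 1 receptor gene was higher and 2 were lower, against 4 and 4 when KD1 was dropped. The share of all genes called moved likewise, to 12.3% to 13.3% without NC1, NC2, NC3 or KD2 and to 42.4% without KD1.

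Of 6 tested growth factors and matrix proteins that CCN proteins bind, 3 rose and 0 fell, with a median difference of 0.48. The share higher, 3 of 6, stands beside 10.9% of all genes tested. Igf1, which encodes an insulin-like growth factor, had 4.04, 3.80 and 4.0 FPKM in NC and 13.9, 10.2 and 9.78 FPKM in KD (difference 1.30, limma adjusted p = 0.000988). The proteoglycan gene Bgn (39.0 ± 2.39 to 96.8 ± 5.91 FPKM) and the adhesive glycoprotein gene Fn1 (173 ± 3.21 to 295 ± 13.0 FPKM) rose with it (SD, n = 3, adjusted p = 0.000106 and 0.000273). Without KD1, 5 of this list rose, beside 2572 of the 12299 genes tested. The other 8 listed genes were under the filter, and 5 of them, including Bmp2 and Bmp7, had 0 reads.

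TEAD targets outside the CCN family, which share their best known input with Cyr61, moved in both directions. Of 14 tested, 4 rose and 5 fell (64.3% called, all genes 24.5%), with a median difference of -0.05. The tissue factor gene F3 had 10.5, 9.26 and 9.06 FPKM in NC and 2.93, 2.37 and 2.76 FPKM in KD and fell (difference -1.53, limma adjusted p = 0.000124), and the receptor tyrosine kinase gene Axl fell from 24.4 ± 0.216 to 17.2 ± 2.24 FPKM (SD, n = 3, adjusted p = 0.0113). The kinase gene Nuak2 rose from 3.37 ± 0.327 to 5.72 ± 0.907 FPKM (adjusted p = 0.012). Crim1, which encodes a cysteine-rich transmembrane protein, had 0.656 ± 0.0889 FPKM in NC and 1.63 ± 0.0869 FPKM in KD. Its mean over the 6 libraries, 1.15 FPKM, passed the filter only through KD. Crim1 is counted among the 4 rises, but no p-value is given for it. The Nuak2 call ended without NC1, NC2 or KD2 (adjusted p between 0.0520 and 0.0531). Dropping NC1, NC2 or KD2 left 2 targets higher and 4 lower, dropping NC3 left 3 and 4, and dropping KD1 gave 5 and 5. Of all genes, 12.3% to 13.3% were called without NC1, NC2, NC3 or KD2, and 42.4% without KD1.

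Among Hippo, TEAD and serum response factor regulators, 4 of 21 tested rose, 3 fell and 14 were not called (33.3% called, near the 24.5% of all genes), with a median difference of 0.00. Vgll3, a TEAD cofactor gene, rose from 10.5 ± 0.598 to 15.6 ± 1.45 FPKM (SD, n = 3, limma adjusted p = 0.00551), and Tead3 from 3.02 ± 0.166 to 4.04 ± 0.483 FPKM (adjusted p = 0.0445). The Hippo kinase gene Lats1 fell from 20.1 ± 0.726 to 15.6 ± 1.54 FPKM (adjusted p = 0.0209) and its activator gene Mob1a from 110 ± 3.33 to 81.7 ± 9.69 FPKM (adjusted p = 0.0153). Calls of Tead3 and Lats1 ended in 5 of the 6 fits that left out 1 library, the exception being KD1, and that of Mob1a without NC1, NC2, NC3 or KD2, and all 3 ended with chromosome medians removed (adjusted p = 0.301, 0.201 and 0.141). Dropping any 1 of NC1, NC2, NC3 and KD2 left 1 regulator higher and 0 lower. Dropping KD3 left 4 and 2, dropping KD1 gave 7 and 6, and removing chromosome medians left 3 and 1. The number of all genes called moved likewise, from 3016 of 12299 to 1513 to 1632 without NC1, NC2, NC3 or KD2. It was 2460 without KD3, 5220 without KD1 and 2431 with chromosome medians removed. Outside the rule for named genes, and chosen after the values were seen, are Yap1 (19.0 FPKM against 18.3 with knockdown, adjusted p = 0.486), Wwtr1, the gene of TAZ (23.9 to 19.3 FPKM, adjusted p = 0.0144), and the TEAD targets Ankrd1 (112 FPKM in both groups, adjusted p = 0.958) and Amotl2 (68.9 to 92.3 FPKM, adjusted p = 0.00652). The Wwtr1 call ended without NC1, NC2, NC3 or KD2 (adjusted p between 0.0523 and 0.0732).

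Inputs of the other members were also examined. Of 12 tested SMAD factors and TGF-beta targets 2 rose and 5 fell (58.3% called, all genes 24.5%), with a median difference of -0.04. Col1a1, a fibrillar collagen gene, rose from 149 ± 2.94 to 284 ± 16.2 FPKM (SD, n = 3) and Smad3 from 13.6 ± 0.215 to 17.7 ± 0.629 FPKM. The feedback gene Skil fell from 8.14 ± 0.611 to 5.19 ± 0.696 FPKM (limma adjusted p at most 0.00822 for the 3). Dropping any 1 of NC1, NC2, NC3 and KD2 left 2 rises and 3 falls, and dropping KD1 gave 3 rises and 6 falls. Those fits called 12.3% to 13.3% of all genes and, without KD1, 42.4%. Of 14 Wnt feedback targets 12 were under the filter and 7, including Axin2, Lef1 and Lgr5, had 0 reads in all 6 libraries. Of the 2 tested, 1 was called (all genes 24.5%). Apcdd1, a membrane inhibitor of WNT signalling, rose from 6.73 ± 0.411 to 8.07 ± 0.294 FPKM (adjusted p = 0.0433). That call ended in 5 of the 6 fits that left out 1 library (adjusted p between 0.0654 and 0.159), the exception being KD1. Rnf43 stood at 4.07 FPKM against 4.38 with knockdown (adjusted p = 0.54).

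**Figure D4:**
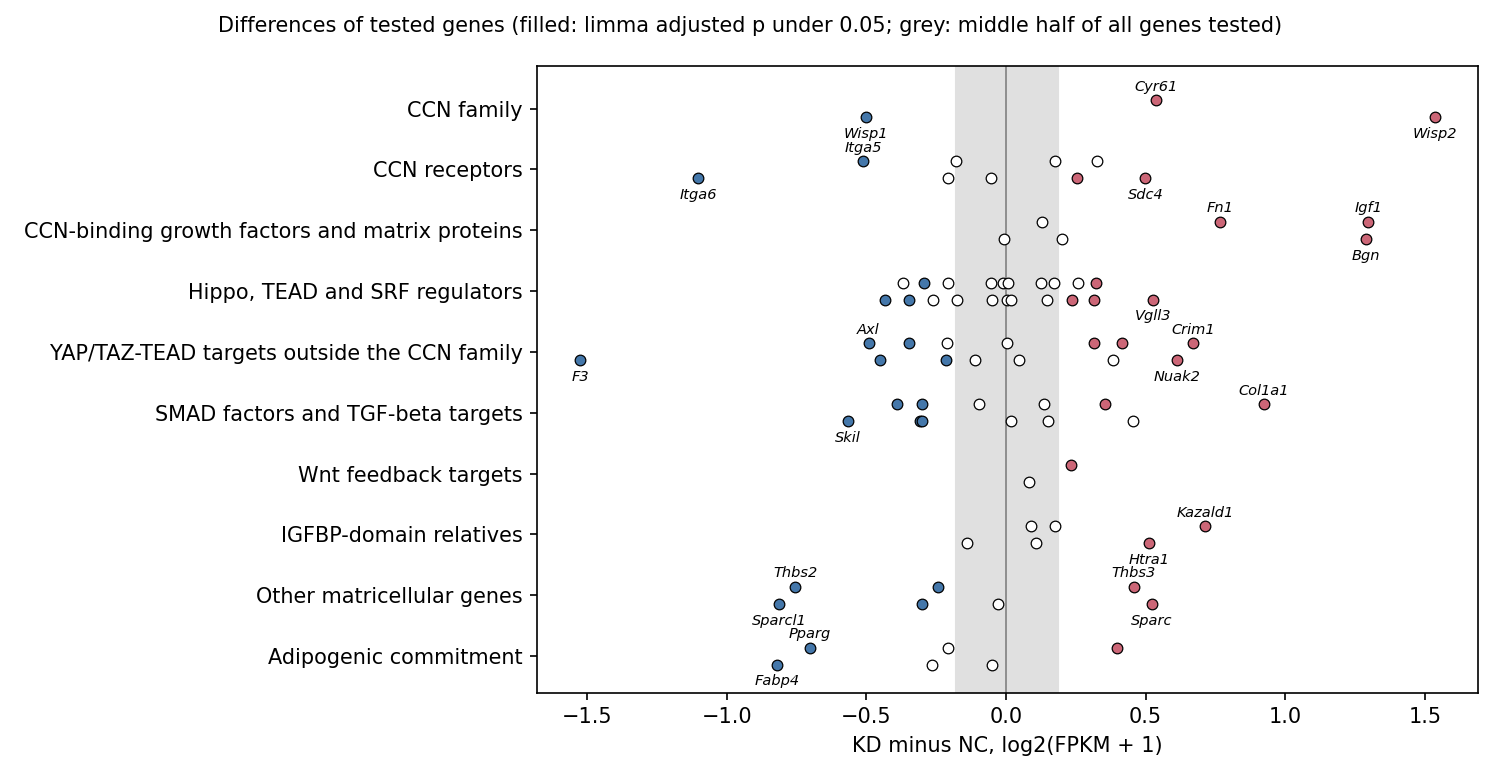
KD minus NC difference on the log2(FPKM + 1) scale for each tested gene of the CCN family and of 9 related lists. Filled points passed the limma threshold (red higher, blue lower), open points did not, and the grey band is the middle 50% of all genes tested (-0.18 to 0.19). Cyr61, Wisp1 and Wisp2 lie outside the band on opposite sides, as do called members of the receptor, TEAD target, SMAD and matricellular lists.

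Genes that resemble CCN genes in structure or role moved as follows. Of 6 tested relatives with an insulin-like growth factor binding module 2 rose and 0 fell (33.3% called, near the 24.5% of all genes), with a median difference of 0.14. The secreted protease gene Htra1 rose from 88.1 ± 2.49 to 126 ± 2.95 FPKM (SD, n = 3, limma adjusted p = 0.00107) and Kazald1 from 1.24 ± 0.369 to 2.65 ± 0.236 FPKM (adjusted p = 0.0143). Without KD1, 4 of them rose, beside 2572 of the 12299 genes tested. Of 7 tested matricellular genes outside the family 2 rose and 4 fell (85.7% called, all genes 24.5%), with a median difference of -0.24. Sparc, the gene of the collagen-binding protein osteonectin, rose from 176 ± 4.95 to 253 ± 13.9 FPKM (adjusted p = 0.00191), and Thbs3 from 1.68 ± 0.0112 to 2.69 ± 0.334 FPKM (adjusted p = 0.017). Thbs2, which encodes a thrombospondin, fell from 24.0 ± 0.427 to 13.8 ± 0.186 FPKM (adjusted p = 0.000193) and Sparcl1 from 2.75 ± 0.230 to 1.14 ± 0.226 FPKM (adjusted p = 0.00366). The Thbs3 call ended in 5 of the 6 fits that left out 1 library, the exception being KD1. Dropping any 1 of NC1, NC2, NC3 and KD2 left 1 matricellular gene higher and 2 lower. Dropping KD3 left 1 and 3, and dropping KD1 gave 2 and 5. Of all 12299 genes tested, 1513 to 1632 were called without NC1, NC2, NC3 or KD2. Without KD3 2460 were called and without KD1 5220, against 3016 with all libraries.

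Of 6 tested adipogenic commitment genes, examined because Wisp2 is linked to that process, 1 rose and 2 fell (3 of 6 called, all genes 24.5%), with a median difference of -0.24. Pparg, the central transcription factor gene of fat cell formation, had 41.4, 41.4 and 40.6 FPKM in NC and 28.5, 23.1 and 23.4 FPKM in KD, where Wisp2 was high, and fell (difference -0.70, limma adjusted p = 0.0024). Its target Fabp4 fell from 9.69 ± 1.11 to 5.08 ± 0.939 FPKM (SD, n = 3, adjusted p = 0.00673), and Cebpd rose from 2.03 ± 0.116 to 3.01 ± 0.433 FPKM (adjusted p = 0.035). The Cebpd call ended without any library other than KD1 (adjusted p between 0.0879 and 0.125). Zfp423, whose protein is known to bind WISP2 in precursor cells, averaged 0.347 FPKM against 0.441 with knockdown and was under the filter.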

How the data were processed

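RNA from 6 libraries (3 NC, 3 KD, groups from the titles) was sequenced as paired-end reads on an Illumina NovaSeq and aligned with HISAT2 2.0.5, per the labels' protocols. Per the submitters' processing notes, the genome was mm10. The authors deposited FPKM per gene with gene positions and lengths. How reads were counted, with which strand setting and which annotation release, is not given in the sources used here. Reads were recovered as whole multiples of a single step per library (100% of values within a tolerance of 0.01). Whether these are reads or fragments is not stated.

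Limma 3.58.1 in R 4.3.3 was fitted to log2(FPKM + 1) with group as the term and trended moderation, for genes averaging 1 FPKM or more over the 6 libraries, with Benjamini-Hochberg adjustment at 0.05 over all of them. The CCN members, gene lists and markers were chosen with earlier results of these data known. Named genes were the members, Calu and Wisp3, up to 4 called genes per list with the largest absolute difference (or the 2 with the highest mean where none passed), the 5 protein-coding genes most like Cyr61 and Wisp2, and genes that overlap or adjoin a member. A few genes that this rule names are not reported here. Some lists share genes, such as Lats2, Tgfbi and Igfbp3. Member ratios were tested by exact permutation. GC content for 1 alternative came from the longest GENCODE M21 transcript.

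On simulated reads for KD against NC over 12314 genes, limma found 64.7% of 1.5-fold changes, 93.8% of 2-fold changes and 98.4% of 4-fold changes. Of genes simulated without a change, 0.149% were called. The simulation gave every gene and library the same spread beyond counting. It held no library-wide departure such as that of KD1 (chi-square over its degrees of freedom of 15.7 and 25.9 against KD2 and KD3). These rates were thus not measured for the real libraries. Alternatives were other pseudocounts, filters, scalings and moderation, a replicate block, voom, each library left out, protein-coding genes, chromosome medians removed, and a GC and length trend removed. Other steps ran in Python 3.11.15 (pandas 2.3.3, scipy 1.17.1, matplotlib 3.10.9).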

Additional observations from a re-analysis of the deposited data

How the results depend on the processing

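Cyr61, Wisp1 and Wisp2 kept their direction and an adjusted p under 0.05 in all 20 alternatives each. The log2 difference ranged from 0.49 to 0.60 for Cyr61, from -0.55 to -0.42 for Wisp1 and from 0.93 to 1.88 for Wisp2, with adjusted p between 0.000368 and 0.0189 over all of these. The alternatives for Wisp1 were added after the data were seen. Leaving out 1 library gave 0.50 to 0.59, -0.55 to -0.46 and 1.38 to 1.68. The 20 did not include fits of all genes with a read that also had a block, voom or 1 library left out. In the blocked fit of that kind, described below, Wisp2 did not keep its call. The 3 ratios between members kept their direction in every alternative run, and that of Wisp2 to Cyr61 was 0.44 with a pseudocount of 5. Genes called numbered 3016, 1513 to 5220 with 1 library left out, and 4605 with the GC and length trend removed. Equal totals moved the called genes from 1344 higher and 1672 lower to 1552 and 1461, and voom to 1837 and 1623. Differences close to 0 changed sign: Wisp3, fitted without the filter (-0.069 without KD1, up to 0.15 with another library left out), Yap1 (0.022 with the GC and length trend removed), Rpl36a-ps2 (-0.077 without KD3, up to 0.44 with another library left out), Ywhab (-0.040 with chromosome medians removed, -0.092 to 0.056 with 1 library left out) and Ankrd1 (-0.051 with chromosome medians removed, -0.022 to 0.019 with 1 library left out). Nov could not be fitted without NC3, since it then had no read.

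With the replicate number as a block, 2433 genes were called and the members kept their calls (adjusted p of 0.00817 for Cyr61, 0.0114 for Wisp1 and 0.00882 for Wisp2). In a blocked fit of all genes with a read, Wisp2 had an adjusted p of 0.0565. Deviations of same-numbered libraries correlated at 0.08, -0.04 and 0.15, and those of differently numbered libraries at -0.16 to 0.08. Whether libraries with the same number are pairs is not stated, and these few values cannot decide it. Few reads limit what these libraries can show of Ctgf, Nov and Wisp3.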

Other observations

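Some genes of the related lists lay under the filter of 1 FPKM but had groups that did not overlap. Comp, which encodes a matricellular protein of cartilage and fibrotic matrix, had 0.294, 0.339 and 0.276 FPKM in NC and 1.15, 1.22 and 1.30 FPKM in KD. Postn, another matricellular gene, had 0.951, 1.16 and 1.18 FPKM in NC and 0.118, 0.0971 and 0.0543 FPKM in KD. The TEAD target Rbms3 had 10 to 20 reads in the NC libraries and 62 to 89 in the KD libraries. Nkd1, a feedback inhibitor of WNT signalling, had 0.874, 1.02 and 1.04 FPKM in NC and 0.628, 0.477 and 0.337 FPKM in KD. These 4 were chosen after their values were seen and were not tested. Of the genes tested, 44.2% also had groups without overlap, and that share was not worked out for genes under the filter.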
